A study of Bos taurus with 33 samples.

Results

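The comparison described here is between 3 heifers that received an empty lipid extrudate in the uterus and 3 that received phosphate-buffered saline (PBS). Its members are the 6 arrays labelled as placebo or PBS controls, out of 33 arrays in the series and 9 in the biopsy experiment. All 9 biopsy animals were Bavarian Simmental heifers whose oestrous cycles had been synchronised with cloprostenol, a prostaglandin analogue. On day 14 of the cycle each received 1 of 3 treatments through the cervix, into the uterine horn on the side of the corpus luteum. The placebo group (n = 3) received the rod-shaped lipid extrudate without drug, the PBS group (n = 3) received PBS, and the IFNA group (n = 3) received the extrudate carrying human interferon alpha. On day 16 the uterus was flushed with 10 ml of PBS and about 6 endometrial biopsies per animal were taken from the same horn, giving 1 array per heifer. No genetic modification is named for any group, and no age is given here. The other 24 arrays come from cyclic and pregnant heifers sampled at slaughter. They were used here only in choosing which probe set stands for a gene. The question is whether the carrier itself moves gene families or markers of cell types, and how far single arrays set any such difference.

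The endometrium is the mucosa of the uterus, in which a surface and glandular epithelium lies on a stroma of fibroblasts, vessels and leukocytes. Around day 16 of the bovine cycle it is under progesterone, and the epithelium secretes proteins and lipids that feed an early embryo. Interferon tau from the conceptus is the signal of pregnancy in cattle, and interferon alpha acts through the same receptor. A lipid extrudate is a slow-release carrier. As a solid lipid body in the lumen it could in principle touch lipid uptake and oxidation, sterol synthesis, macrophages and inflammation, so lists for these processes were examined beside markers of each cell type.

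A marker of epithelium and a marker of mesenchyme were both high in all 6 arrays. The epithelial adhesion gene EPCAM lay between 12.62 and 12.9 log2 units, a level above that of 99.5% of the probe sets, and the mesenchymal filament gene VIM between 11.86 and 12.45. Values are log2 expression levels per probe set and the median probe set stood at 6.64. Differences are placebo minus PBS on the log2 scale, given with the standard error (SE) from limma, where 1 unit is a 2-fold change. The labels name the 3 animals of a group as biological replicates, so p-values measure the spread between animals. Their number limits the precision, and the median SE of a difference was 0.147.

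No probe set passed the test for a difference between placebo and PBS. Of 24016 probe sets, 0 (0%) reached an adjusted p below 0.05 in limma with Benjamini-Hochberg adjustment, and the smallest adjusted p was 0.428. At an unadjusted p below 0.05 there were 651 probe sets (2.71%), of which 258 (1.07%) were higher and 393 (1.64%) were lower with placebo. Without any group difference a share of about 0.05 of the tests would be expected below that level, more than was found. With one probe set per gene, 286 of 9155 genes (3.12%) had an unadjusted p below 0.05, 114 higher (1.25%) and 172 lower (1.88%). All following counts of list members are read against these shares, and every adjusted p was 0.428 or more. The 3 placebo values all lay above or all lay below the 3 PBS values, called no overlap here, in 637 genes (6.96%), 276 higher (3.01%) and 361 lower (3.94%). Counts of list members without overlap are read against these. A share of about 0.1 would be expected without any group difference, more than was found. The sign of the difference alone was split evenly, with 4621 genes above 0 (50.5%) and 4462 below 0 (48.7%).

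The size of the differences was bounded more closely for some genes than for others. The 95% confidence interval of the difference lay wholly within 1 log2 unit of 0 for 22316 probe sets (92.9%). It lay within 0.5 of 0 for 14317 (59.6%). Only 31 genes (0.339%) differed by more than 1 log2 unit between the group means, and 75 probe sets (0.312%) did so. The plot of differences against p shows these in both directions.

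**Figure D1:**
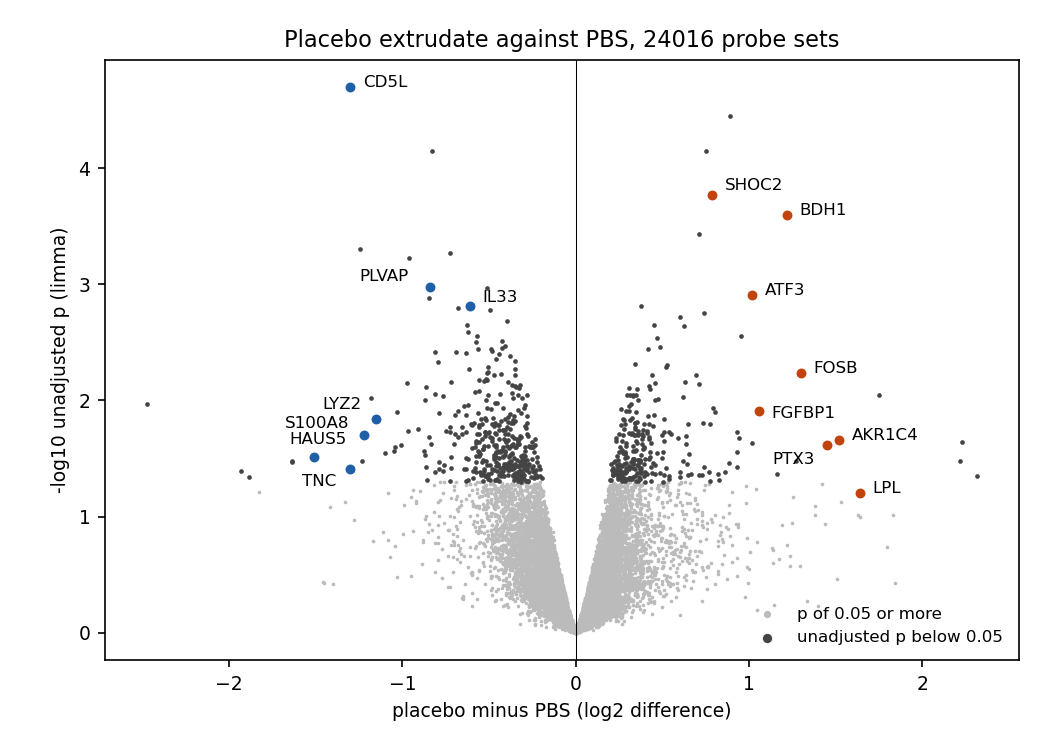
Difference between placebo and PBS (x axis, log2) against -log10 of the unadjusted limma p (y axis) for 24016 probe sets. Dark points have an unadjusted p below 0.05; genes discussed in the text are coloured, red where higher and blue where lower with placebo, and CD5L at -1.30 is the topmost point.

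The placebo arrays were more spread than the PBS arrays, with a median SD per gene of 0.207 against 0.127, and 0.166 in the IFNA arrays. Over the 9155 genes, the root mean square (RMS) difference between 2 placebo arrays was 0.409, 0.466 or 0.525, whereas between 2 PBS arrays it was 0.300, 0.346 or 0.351. Each placebo array was closer to a PBS array than to either other placebo array. Placebo 1 differed from PBS 2 by 0.285, placebo 2 from PBS 1 by 0.352, and placebo 3 from PBS 3 by 0.373.

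Placebo 3 held the highest or lowest of the 6 values in 54.5% of genes and placebo 2 in 44.2%, against 25.9% for placebo 1 and 22.0%, 22.3% and 23.5% for PBS 1, 2 and 3. These arrays also differed in 1 of the control measures read for RNA integrity, the excess of the GAPDH 3′ probe set over its 5′ probe set. This excess was 2.83, 3.87 and 1.03 log2 units in placebo 1, 2 and 3, and 3.30, 3.11 and 1.59 in PBS 1, 2 and 3. Placebo 2 thus had the largest and placebo 3 the smallest GAPDH excess. The same measure for the elongation factor EF1A had these arrays at its ends too, with -0.22, 0.76 and -1.38 for placebo and 0.18, 0.13 and -0.95 for PBS. For actin it did not separate the placebo arrays, at 1.00, 1.02 and 1.03, and PBS 3 was highest (0.75, 0.94 and 1.54 in PBS 1, 2 and 3), so the control genes gave different orders. The nearest PBS array to each placebo array in expression was also the nearest in the GAPDH measure. The groups overlapped in it, and its part in the spread was not tested beyond a fit with it as a covariate, which also gave 0 adjusted calls. A fit with array weights, which count an array less the farther it lies from its group, gave placebo 1, 2 and 3 weights of 2.51, 0.58 and 0.35 and so leaned on placebo 1.

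**Figure D2:**
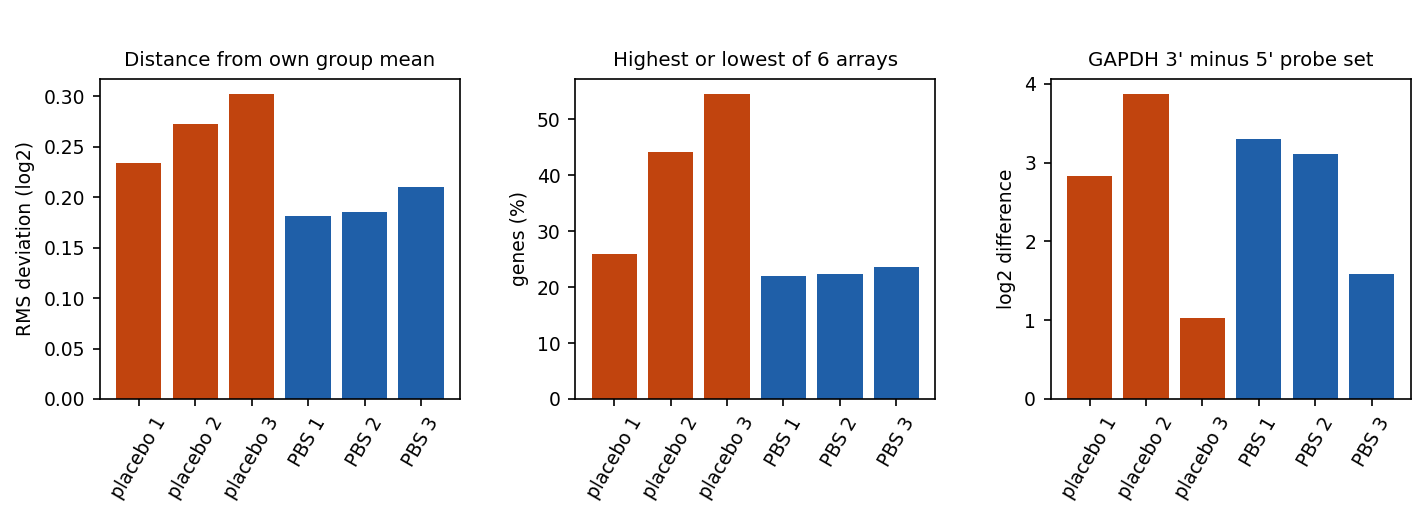
Left, RMS deviation of each of the 6 arrays from its own group mean over 9155 genes (log2). Middle, percent of genes in which the array held the highest or lowest value of the 6; right, GAPDH 3′ minus 5′ signal (log2). Placebo bars are red and PBS bars blue; placebo 2 and 3 stand highest in the first 2 panels and lie at opposite ends of the third.

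Few of the nominal differences of single genes held whichever animal was left out. Of the 286 genes with an unadjusted p below 0.05, 60 (21.0%) kept an unadjusted p below 0.05 in all 6 reduced fits. All 286 kept their direction whichever of the 6 arrays was left out. They were chosen on the same arrays, so that outcome was nearly fixed in advance. Of the 758 measured genes on the 38 lists, 9 were among these 60: PLVAP, CD5L, IL33, DECR1, ACAT2, FOSB, ATF3, BIRC5 and EDNRB. The share to set beside this is 60 of all 9155 genes. These 9 recur below as the members that kept such a p in every reduced fit. Leaving an animal out also lowers the precision, so losing that p does not by itself show dependence on 1 animal.

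The list medians ranged from -0.36 for endothelium and MHC class II to 0.36 for the immediate early genes. A list median is the median difference over its measured genes, and 758 of the 957 genes on the lists were measured. Members of a list are read on the same 6 arrays and can move together. A count of members in 1 direction is therefore not a count of independent readings. The plot of list medians shows how far each moved when 1 array was left out. A second measure, the list level of an array, is the median over members of the value minus that gene's mean over the 6 arrays. Among the 38 lists, placebo and PBS list levels did not overlap only for endothelium, cholesterol synthesis, fatty acid synthesis and oxidative phosphorylation. Full separation of 3 against 3 arrays, in either direction, has an exact permutation p of 0.1. Some of 38 lists would therefore be expected to separate without any group difference.

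**Figure D3:**
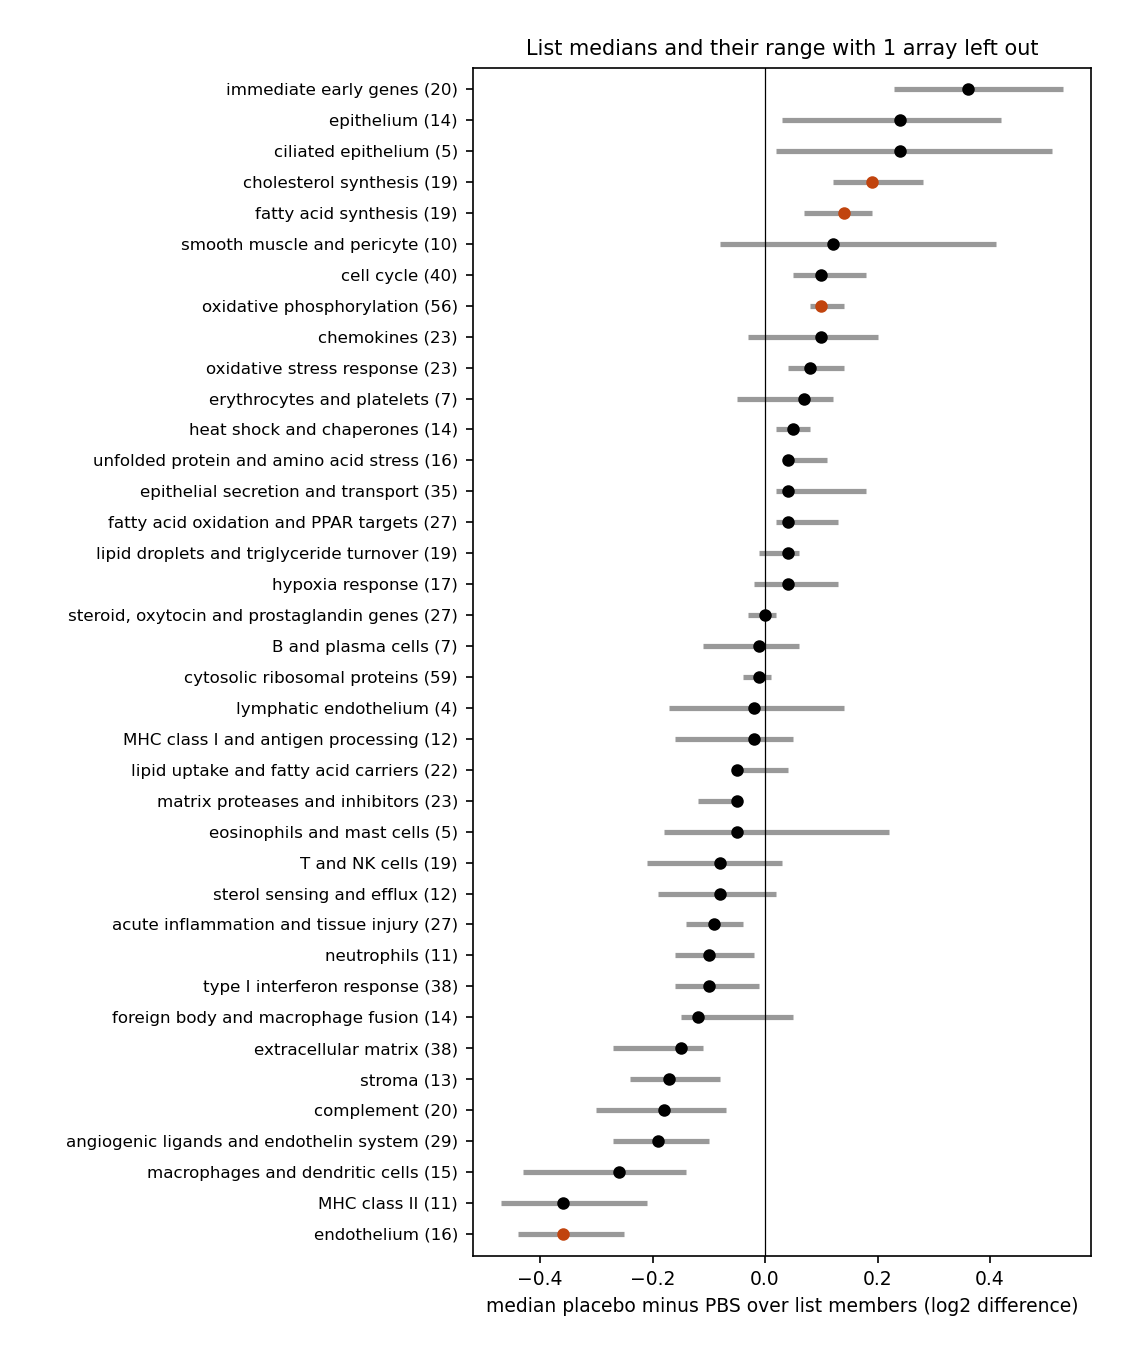
Median placebo minus PBS difference (log2) over the measured members of each of 38 gene lists, with the number of measured members in brackets. Grey bars span the medians found when each of the 6 arrays was left out in turn; red points mark the 4 lists whose placebo and PBS list levels did not overlap.

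Endothelial markers were lower with placebo in 14 of 16 measured genes, with a median of -0.36, against 48.7% of all genes below 0. In 5 members (PLVAP, EMCN, ERG, TEK and CD34) there was an unadjusted p below 0.05, all lower, and in 4 the groups did not overlap, again all lower. PLVAP, which forms the diaphragms of fenestrated capillaries, read 8.50, 8.30 and 8.82 in the placebo arrays and 9.32, 9.37 and 9.46 in the PBS arrays. Every placebo value lay below every PBS value. The difference was -0.84 ± 0.176, 1.79-fold lower, with an unadjusted p of 0.00105 and an adjusted p of 0.999. A second PLVAP probe set differed by -0.20 ± 0.356.

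EMCN, a sialomucin of veins and capillaries, read 11.27, 10.88 and 10.79 with placebo and 11.30, 11.49 and 11.50 with PBS, and its other probe set differed by a similar -0.48. Placebo 1 and PBS 1 nearly met. TEK, the angiopoietin receptor TIE2, read 10.64, 10.31 and 10.24 against 10.73, 10.77 and 10.89. ERG, an endothelial transcription factor, read 8.67, 8.27 and 7.95 against 8.59, 8.76 and 8.77, so placebo 1 lay among the PBS values. The junction genes CDH5 (-0.40) and PECAM1 (-0.33) had unadjusted p-values of 0.0601 and 0.062. FLT1, a receptor for vascular endothelial growth factor, differed by -0.49 without overlap (unadjusted limma p 0.0715). Its other probe sets also did not overlap but went opposite ways, at 0.31 (p 0.00899) and -0.28 (p 0.0193). KDR and VWF, at 3.20 and 4.30 on average, had only 8.26% and 20.0% of probe sets below them and differed by 0.03 and 0.08.

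The list level of endothelium was 0.02, -0.37 and -0.05 in placebo 1, 2 and 3 and 0.07, 0.19 and 0.27 in PBS 1, 2 and 3. Placebo 1 thus lay only just below PBS 1. The median was -0.25 without placebo 2 and -0.44 without placebo 1, the ends of that range, and -0.37 with the GAPDH measure as a covariate. With array weights it was -0.23, and 1 member in place of 5 had an unadjusted p below 0.05. In tissue pieces of mixed cells, fewer endothelial cells and less endothelial RNA per cell cannot be told apart. In the IFNA arrays, which share the extrudate with placebo, the level was -0.07, -0.64 and -0.24, and PLVAP read 8.12, 7.61 and 8.14.

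**Figure D4:**
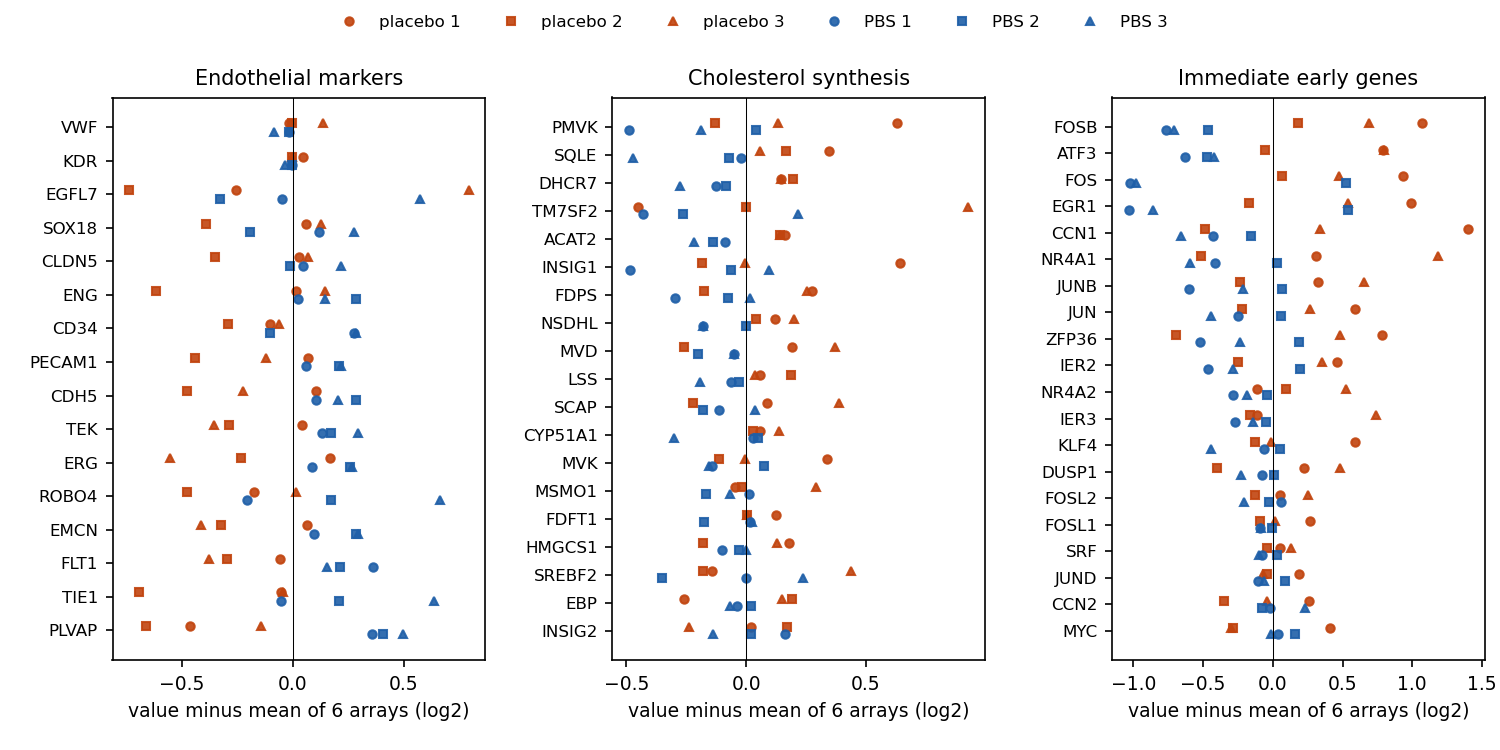
Value of each member minus its mean over the 6 arrays (x axis, log2), for endothelial markers, cholesterol synthesis genes and immediate early genes. Placebo arrays are red and PBS arrays blue, with a different symbol for each animal; PLVAP, FOSB and ATF3 separate the groups, and most other genes do not.

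Angiogenic ligands, receptors and the endothelin system had a median of -0.19, with 24 of 29 genes lower. Of these, 3 had an unadjusted p below 0.05, all lower, and 5 did not overlap, all lower. The median was -0.09 with array weights. Some members, such as TEK, FLT1 and TIE1, also stand on the endothelial list. EDNRB, the endothelin B receptor, read 4.01, 3.70 and 3.42 with placebo and 4.27, 4.96 and 4.20 with PBS. These values are low, and 17.8% of probe sets lay below the gene's mean. The difference was -0.77 ± 0.231 with an unadjusted p of 0.00915. VEGFA, the growth factor for endothelium, read 9.38, 9.38 and 8.96 against 9.69, 9.64 and 9.39, a difference of -0.33, while its other probe set gave -0.09. Adrenomedullin (ADM), a vasodilator peptide on the hypoxia list, read 9.60, 9.15 and 8.58 against 9.64, 9.84 and 9.65, a difference of -0.60 ± 0.224. The hypoxia list as a whole had a median of 0.04, with 9 genes higher and 8 lower.

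Lymphatic endothelium was represented by 4 genes with a median of -0.02. Smooth muscle and pericyte genes had a median difference of 0.12, although the mean list levels differed by -0.04. The median ran from -0.08 without placebo 3 to 0.41 without PBS 3. In that list PBS 3 had a level of 0.42, while the other PBS arrays were at -0.35 and -0.28 and the placebo arrays between -0.15 and -0.08. TAGLN, an actin-binding gene of smooth muscle, read 8.18 in placebo 3 and 8.31 in PBS 3 but 5.56 to 6.28 in the other arrays.

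The smallest p of the whole comparison belonged to CD5L, a secreted scavenger protein of macrophages. It read 3.60, 3.57 and 3.40 in the placebo arrays and 5.07, 4.53 and 4.87 in the PBS arrays. The groups stood apart by more than the spread within either. The difference was -1.30 ± 0.158, 2.46-fold lower, with a 95% interval from -1.66 to -0.94, an unadjusted p of 2.01e-05 and an adjusted p of 0.428. It lay between -1.45 and -1.18 whichever array was left out. The IFNA arrays read 3.71, 3.40 and 3.76. The gene's mean of 4.17 was above that of only 18.7% of probe sets, so the placebo and IFNA values are near the bottom of the measured range.

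The other macrophage and dendritic cell markers were lower by less, and 13 of 15 were below 0 with a median of -0.26. CD5L was the only member with an unadjusted p below 0.05 or without overlap. CSF1R, the receptor for the macrophage growth factor, read 7.66, 7.06 and 7.06 with placebo and 7.53, 7.63 and 7.78 with PBS. TYROBP, an adaptor of myeloid receptors, read 8.13, 7.62 and 6.96 against 7.99, 8.32 and 7.95. In both, placebo 1 lay among the PBS animals and placebo 2 and 3 lay below them. The list level showed the same order, at 0.23, -0.21 and -0.39 for placebo and 0.08, 0.27 and 0.14 for PBS. The median was -0.14 without placebo 3, -0.43 without placebo 1 and -0.07 with array weights.

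MHC class II genes, which present antigen on dendritic cells, macrophages and B cells, had the same median as endothelium (-0.36, 9 of 11 lower), but only BOLA-DRA had an unadjusted p below 0.05. BOLA-DRA read 11.16, 10.83 and 10.64 with placebo and 11.14, 11.12 and 11.60 with PBS, so the groups overlapped. The DQ genes, which are highly polymorphic in cattle, varied by animal. BOLA-DQA5 read 8.06 in PBS 1 and between 3.51 and 3.78 in the other 5 arrays, and BOLA-DQB read 7.02 in PBS 1 and 4.68 to 4.92 elsewhere. Their differences were -1.46 ± 1.54 and -0.65 ± 0.899, with PBS 1 alone standing high. Without PBS 1 the list median was -0.22, and with array weights -0.17. The list levels were 0.08, -0.39 and -0.16 for placebo and 0.06, -0.03 and -0.06 for PBS, a difference between their means of only -0.15.

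Complement genes had a median of -0.18, with 13 of 20 lower and 3 lower at an unadjusted p below 0.05. SERPING1, the inhibitor of the first complement component, read 10.78, 10.52 and 10.49 with placebo and 11.04, 11.04 and 10.80 with PBS, and the groups almost met. The proteases C1R (-0.49) and C1S (-0.39) were the other members with an unadjusted p below 0.05. CFB, of the alternative pathway, differed by 0.53 in the other direction. The list median was -0.07 without placebo 3 and 0.05 when arrays were weighted by their quality in the fit.

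Among markers of other leukocytes, neutrophil genes had a median of -0.10 with 5 higher and 6 lower. S100A8, a calcium-binding protein of neutrophils and monocytes, read 9.04, 8.31 and 7.02 with placebo against 9.18, 9.22 and 9.63 with PBS, a difference of -1.22 ± 0.429. Its partner S100A9 read 7.24, 6.88 and 6.73 against 7.26, 7.27 and 7.30, and another S100A9 probe set differed by -1.10. In both genes placebo 1 almost reached the PBS values. The IFNA arrays had an S100A8 mean of 7.22 ± 0.26 (SD, n = 3). T and NK cell genes had a median of -0.08 over 19 genes and B and plasma cell genes -0.01 over 7, with no shared shift. NCR1, an NK cell receptor, differed by 0.33 at a level of 3.81 to 4.44.

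Extracellular matrix genes were lower in 33 of 38 members, with a median of -0.15. Of these, 4 had an unadjusted p below 0.05 and 4 did not overlap, all lower. TNC, tenascin C, which is made in remodelling tissue, read 9.52, 8.80 and 7.84 with placebo and 9.95, 10.85 and 9.26 with PBS. The groups overlapped, and the difference of -1.30 ± 0.537 was -0.86 at its smallest with an array left out. Another TNC probe set differed by -0.11. FBLN5, a fibulin of elastic fibres, read 8.66, 8.66 and 7.77 against 9.57, 9.42 and 8.70, which left a narrow gap. The laminin chains LAMA4 (-0.47) and LAMB2 (-0.45) and the crosslinking enzyme gene LOXL1 (-0.57) also did not overlap, and another LAMA4 probe set gave 0.09.

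Stromal markers followed the matrix genes in sign, with 12 of 13 lower and a median of -0.17, but 0 had an unadjusted p below 0.05 in limma. In both lists placebo 3 was lowest, at -0.24, and placebo 1 lay within the PBS range. With array weights the medians were -0.08 for the matrix genes and -0.11 for the stromal markers. Matrix proteases and their inhibitors had a median of -0.05, and ADAMTS4 (-0.44) and TIMP3 (-0.31) were without overlap.

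Epithelial markers were higher with placebo in 13 of 14 genes, with a median of 0.24, opposite in sign to stroma and endothelium. Of these, 2 had an unadjusted p below 0.05. KRT19, a keratin, read 9.14, 9.36 and 10.05 with placebo and 8.41, 8.99 and 9.20 with PBS. CDH1, the epithelial cadherin, read 10.87, 10.65 and 10.99 against 10.41, 10.56 and 10.70, and another probe set gave 0.03. Both overlapped between groups. The list levels were -0.05, -0.13 and 0.53 for placebo and -0.28, -0.22 and 0.10 for PBS, so placebo 3 and PBS 3, the 2 arrays with the smallest GAPDH excess, were highest in their groups. Without placebo 3 the median was 0.03, and with the GAPDH measure as a covariate it was 0.20. With array weights it was 0.09, and 1 member in place of 2 had an unadjusted p below 0.05. Ciliated cell genes had a median of 0.24 over 5 genes, which was 0.02 without placebo 2 and -0.19 with array weights. The part of epithelial content in the differences of other lists was not tested.

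**Figure D5:**
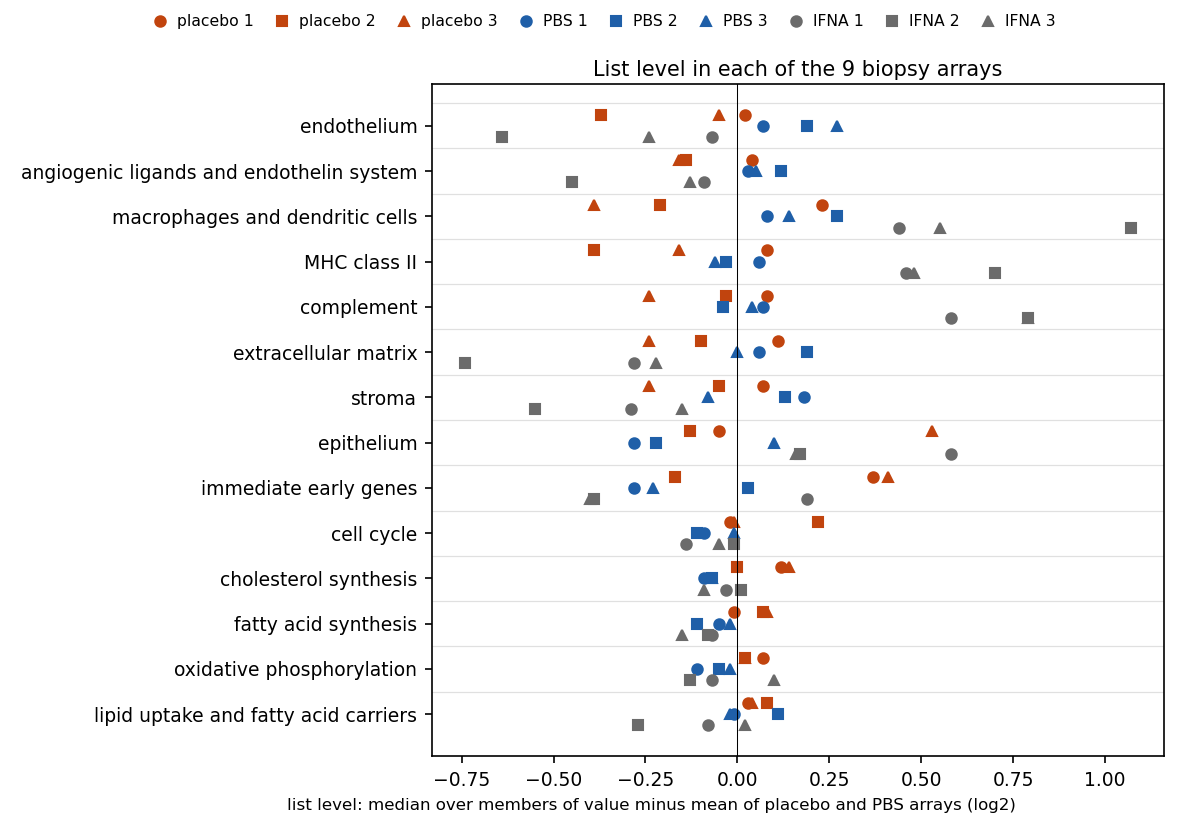
List level in each of the 9 biopsy arrays (x axis, log2, relative to the mean of the placebo and PBS arrays) for 14 lists. Placebo arrays are red, PBS arrays blue and IFNA arrays grey, with a different symbol for each animal and some symbols overlapping; placebo 1 lies near or within the PBS range in the macrophage, MHC class II, complement, matrix and stroma lists.

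Immediate early genes are transcription factors and regulators induced within minutes by growth factors, stretch or handling of tissue. They had the highest list median, 0.36, with 18 of 20 above 0. FOSB read 8.00, 7.11 and 7.62 with placebo and 6.16, 6.46 and 6.22 with PBS, a difference of 1.30 ± 0.359 with an unadjusted p of 0.00581 and an adjusted p of 0.999. ATF3, a stress-induced factor, read 8.52, 7.68 and 8.53 against 7.10, 7.26 and 7.31, a difference of 1.02 ± 0.218. In these genes all placebo arrays were above all PBS arrays, and both kept an unadjusted p below 0.05 with any 1 array left out. Another FOSB probe set differed by 0.19 ± 0.189.

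The remaining members overlapped. FOS read 12.39, 11.52 and 11.93 with placebo and 10.43, 11.98 and 10.47 with PBS, and EGR1 read 12.08, 10.92 and 11.63 against 10.06, 11.63 and 10.23. PBS 2 was high and placebo 2 low in each. The list levels were 0.37, -0.17 and 0.41 for placebo and -0.28, 0.03 and -0.23 for PBS. The median stayed between 0.23 and 0.53 with any array left out. In the IFNA arrays FOSB read 7.12, 5.89 and 5.72, 1 animal being within the placebo range and the others below the PBS values. ATF3 differed from FOSB there, reading 7.68, 7.75 and 7.98, all above the PBS values and within the placebo range. The IFNA list levels, 0.19, -0.39 and -0.40, lay on both sides of the PBS levels. Heat shock genes had a median of 0.05, unfolded protein and amino acid stress genes 0.04, and oxidative stress genes 0.08. No member of these lists had an unadjusted p below 0.05 in limma.

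Sterol and fatty acid synthesis genes were slightly higher with placebo. Cholesterol synthesis had 18 of 19 genes above 0 with a median of 0.19. Of these, 3 had an unadjusted p below 0.05 and 5 did not overlap, all higher. ACAT2, a thiolase at the entry of the pathway, read 8.14, 8.12 and 8.12 with placebo and 7.89, 7.84 and 7.76 with PBS, a difference of 0.30 ± 0.0889. DHCR7, which makes the final step to cholesterol, read 8.24, 8.29 and 8.24 against 7.97, 8.01 and 7.82. SQLE, squalene epoxidase, read 10.45, 10.27 and 10.16 against 10.08, 10.03 and 9.63. The placebo arrays were above the PBS arrays in each of these, by 0.30 to 0.38 log2 units on average. The largest difference of the list was that of PMVK, phosphomevalonate kinase (0.42 ± 0.218), whose groups overlapped. The enzymes HMGCS1 (0.09) and FDFT1 (0.09) and the regulator SREBF2 (0.08) differed by less than their SE.

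The cholesterol list level was 0.12, 0.00 and 0.14 for placebo and -0.09, -0.07 and -0.07 for PBS, and the median ran from 0.12 without placebo 3 to 0.28 without placebo 2. In the IFNA arrays, which share the extrudate, the list level was -0.03, 0.01 and -0.09. ACAT2 averaged 7.83 ± 0.09 there (SD, n = 3), equal to the PBS mean of 7.83. Fatty acid synthesis had a median of 0.14 with 14 of 19 above 0. SCD, the stearoyl-CoA desaturase, was its only member with an unadjusted p below 0.05 and read 9.84, 10.35 and 10.02 against 9.41, 9.26 and 9.63. Its difference was 0.64 ± 0.233, and 3 of the 6 fits with an array left out had an unadjusted p above 0.05. The levels of the fatty acid list did not overlap, but by only 0.01 between placebo 1 and PBS 3. Its IFNA levels of -0.07, -0.08 and -0.15 lay below all placebo levels.

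Lipid uptake, oxidation and storage showed no shared direction. Lipid uptake genes had a median of -0.05, with 8 higher and 14 lower. LPL, lipoprotein lipase, had the largest difference of any member (1.64 ± 0.768, unadjusted p 0.0621). It read 6.76, 9.78 and 7.38 with placebo and 6.21, 6.21 and 6.58 with PBS. All placebo values were above all PBS values, but placebo 2 stood far from the others, and without it the difference was 0.74. FABP3, a fatty acid carrier, read 10.20, 8.19 and 8.90 against 7.08, 8.76 and 8.88, with PBS 1 lowest and a difference of 0.86 ± 0.64. CAV1, of caveolae, read 11.73, 11.68 and 11.42 against 11.80, 11.85 and 11.89.

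Fatty acid oxidation and PPAR target genes had a median of 0.04, with 16 higher and 11 lower. DECR1, a mitochondrial reductase for unsaturated fatty acids, read 8.29, 8.20 and 8.48 with placebo and 7.75, 7.85 and 7.97 with PBS, a difference of 0.47 ± 0.114 with an unadjusted p of 0.00288. ACADM, the medium-chain acyl-CoA dehydrogenase, read 10.59, 10.79 and 10.77 against 10.48, 10.35 and 10.32. In the IFNA arrays DECR1 averaged 8.25 ± 0.12 (SD, n = 3). The common reporters of fatty acid exposure differed little: PDK4 by 0.05 ± 0.297, ANGPTL4 by -0.08 ± 0.155 and PLIN2, the coat protein of lipid droplets, by 0.19 ± 0.187. The lipid droplet list had a median of 0.04 and the sterol efflux list -0.08, and 0 members of either had an unadjusted p below 0.05 in limma.

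Oxidative phosphorylation genes were above 0 in 54 of 56 members, but by a median of 0.10. In limma 0 had an unadjusted p below 0.05, or 5 with array weights, where 6.87% of all probe sets had such a p. Members without overlap numbered 12, all higher, against 3.01% of all genes. NDUFB1, a subunit of complex I, read 9.91, 9.78 and 9.58 with placebo and 9.41, 9.39 and 9.52 with PBS. UQCRFS1, the iron-sulphur subunit of complex III, read 10.70, 10.51 and 10.64 against 10.28, 10.41 and 10.48. The placebo levels of the list, 0.07, 0.02 and 0.02, were above the PBS levels of -0.11, -0.05 and -0.02, with a narrow gap between 0.02 and -0.02. The IFNA levels were -0.07, -0.13 and 0.10. Cytosolic ribosomal proteins, another large family of abundant transcripts, had a median of -0.01 with 20 higher and 39 lower.

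Cell cycle genes were above 0 in 30 of 40 members, with a median of 0.10. Of these, 5 had an unadjusted p below 0.05 and 7 did not overlap, all higher. BIRC5, survivin, read 5.90, 6.39 and 6.06 with placebo and 5.73, 5.49 and 5.75 with PBS, a difference of 0.46 ± 0.14. BUB1B, a spindle checkpoint kinase, read 5.03, 6.28 and 5.36 against 4.51, 4.97 and 5.06, and MELK read 6.08, 6.50 and 5.74 against 5.70, 5.53 and 5.71. Placebo 2 was highest in each of these. The list level was 0.22 in placebo 2 and -0.02 and -0.01 in placebo 1 and 3, against -0.09, -0.11 and -0.01 for PBS, and without placebo 2 the median was 0.05.

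Inflammation and the reaction to a foreign body were examined because the carrier is a solid implant. The acute inflammation and injury list had a median of -0.09 over 27 genes. PTX3, a soluble pattern receptor, read 9.25, 8.77 and 8.39 with placebo and 6.10, 7.47 and 8.48 with PBS. The groups overlapped at PBS 3, the difference was 1.45 ± 0.535, and without PBS 1 it was 0.83 with an unadjusted p of 0.0707. SAA3, an acute phase protein made by epithelia, read 11.64, 11.10 and 12.05 against 10.35, 11.26 and 11.00, a difference of 0.73 ± 0.309. IL33, an alarmin cytokine, read 8.55, 8.37 and 8.52 against 9.05, 9.13 and 9.10. All placebo values were lower, by 0.61 ± 0.136 on average with an unadjusted p of 0.00153, but of the other IL33 probe sets 1 differed by -0.69 and 1 by 0.45. IL1B differed by -0.09 ± 0.233.

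Chemokines had a median of 0.10, with 15 higher and 8 lower, and the median was -0.03 without placebo 1. CXCL2, which draws neutrophils, read 6.22, 6.51 and 6.04 with placebo and 4.97, 5.95 and 5.92 with PBS. CCL11 (0.43) and CCL21 (0.28) had unadjusted p-values of 0.0489 and 0.0281 in limma, and each had one above 0.05 in 4 of the 6 reduced fits. The groups overlapped for CCL11, and only 22.3% of probe sets lay below the mean of CCL21. Genes of foreign body response and macrophage fusion had a median of -0.12 over 14 genes, and 0 had an unadjusted p below 0.05 in limma or lay without overlap. SPP1, osteopontin, ranged from 6.09 to 9.51 within placebo alone.

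Genes of the type I interferon response did not stand above PBS with the empty carrier. Their median was -0.10 over 38 genes, 12 higher and 26 lower, and ran between -0.16 and -0.01 with an array left out. ISG15, an interferon-induced ubiquitin-like protein, read 8.17, 7.76 and 7.70 with placebo and 7.28, 7.67 and 8.22 with PBS, a difference of 0.15 with a 95% interval from -0.36 to 0.67. MX2 read 5.80, 5.34 and 5.89 against 5.20, 5.46 and 5.99. In both the groups overlapped, while the IFNA arrays averaged 12.79 ± 0.11 for ISG15 and 11.09 ± 0.34 for MX2 (SD, n = 3). The median of the list was 2.36 for IFNA minus placebo and 2.37 for IFNA minus PBS, which use the same IFNA arrays. An unadjusted p below 0.05 was found in 3 members, all lower with placebo: GBP4 (-0.81), PLAC8B (-0.37) and UBA7 (-0.29). Antigen processing and MHC class I genes had a median of -0.02.

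Steroid, oxytocin and prostaglandin genes had a median of 0.00, with 13 of 27 higher and 13 lower. The oxytocin receptor OXTR differed by 0.11 ± 0.406, the progesterone receptor PGR by 0.22 ± 0.174, the oestrogen receptor ESR1 by 0.01 ± 0.176 and the prostaglandin synthase PTGS2 by -0.08 ± 0.378. The intervals of these differences are wide for OXTR and PTGS2. ESR1 and PGR read only 3.76 to 4.29 and 3.77 to 4.47 in the 6 arrays, against 6.64 for the median probe set. At such low levels their narrower intervals do not show that the receptors were unchanged. Genes of epithelial secretion and transport had a median of 0.04. SERPINA14, the uterine milk protein, read 10.14, 8.32 and 9.02 with placebo and 6.42, 8.87 and 9.40 with PBS. PBS 1 was far below the others, and without it the difference was 0.02. SLC1A5, a glutamine transporter, read 7.71, 7.38 and 7.38 against 7.16, 7.13 and 7.14.

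Outside the lists, the largest differences without overlap included genes of secretion and metabolism. BDH1, a mitochondrial enzyme of ketone body metabolism, read 6.45, 6.44 and 6.04 with placebo and 4.70, 5.44 and 5.13 with PBS. Its difference of 1.22 ± 0.207 had an unadjusted p of 0.000251 and an adjusted p of 0.999, and lay between 1.02 and 1.40 with any array left out. The IFNA arrays read 5.62, 5.59 and 5.22, the last within the PBS range and the others between the groups. SHOC2, a scaffold of RAS signalling, read 8.90, 8.97 and 8.80 against 8.18, 8.08 and 8.04, a difference of 0.79 ± 0.127 with an adjusted p of 0.813, and its IFNA values were 8.68, 9.09 and 9.07. Another SHOC2 probe set differed by -0.10 ± 0.336.

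AKR1C4, of the aldo-keto reductases, read 10.30, 11.25 and 10.20 with placebo and 7.78, 9.28 and 10.12 with PBS, a difference of 1.52 ± 0.547, and of 5 other probe sets 4 differed by 0.11 or less in size. Probe sets may not separate near-identical members of this family, nor of the lysozymes. FGFBP1, a carrier of fibroblast growth factors, read 7.18, 5.96 and 5.73 against 4.96, 5.50 and 5.23. TFF3, a mucosal trefoil peptide, read 8.93, 8.96 and 9.48 against 7.81, 8.58 and 8.60. NTS (0.93), ABO (0.93) and AREG (0.82), an epidermal growth factor receptor ligand, were also higher without overlap, and each had an unadjusted p above 0.05 in 2 to 4 of the 6 reduced fits.

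On the lower side HAUS5, a spindle augmin subunit, read 7.52, 7.55 and 5.02 with placebo and 7.83, 8.26 and 8.54 with PBS. Placebo 3 accounted for much of the difference of -1.51 ± 0.588, which was -0.68 without it. LYZ2, a lysozyme, differed by -1.15 ± 0.378, while its other probe sets gave 0.88, 1.53 and -0.03. KLK10 (-0.97), DSC1 (-0.87) and FGL2 (-0.86) kept an unadjusted p below 0.05 with any array left out. DPYS (-1.04) and CACNA1G (-0.88) did not in 3 of the 6 fits.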

How the data were processed

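RNA of endometrial biopsies was measured on Affymetrix bovine genome arrays. The authors deposited log2 values per probe set, made with RMA from affy per the submitters' processing notes. Values of the 9 biopsy arrays were used as deposited. Of 24128 probe sets, 112 controls were left out. A symbol was given for 13292 probe sets by the platform annotation, 86 had several and 10638 none. A gene was represented by whichever of its probe sets had the greatest average in the 33 arrays.

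A linear model with one mean per group was fitted to the 9 biopsy arrays in limma 3.58.1 (R 4.3.3; two-sided moderated tests), and p-values were adjusted over 24016 probe sets by Benjamini-Hochberg. An exact permutation test of 3 against 3 cannot go below 0.1. The fit was run on simulated data with independent normal noise of equal spread in every group, unlike these arrays. That run does not show how many real differences were missed here. Members, 38 gene lists (12 of cell markers, 26 of gene families) and settings were chosen with earlier results of these data known. Named genes were the 10 largest differences each way with an unadjusted p below 0.05 and no overlap, up to 4 such members per list (either criterion), and a fixed set; others were picked after their values were seen. RMA sets every array to 1 distribution, so a shift shared by most genes would not show, and probe set values carry no detection calls. Alternatives were the 2 control groups alone, a replicate block, quantile normalisation, array weights, the GAPDH covariate, a filter on dim probe sets, other moderation and summaries, and each array left out.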

Additional observations from a re-analysis of the deposited data

How the results depend on the processing

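With 3 animals a group, arrays uneven in the GAPDH measure and no detection calls, small shifts and genes near background are poorly resolved. Adjusted calls were 0 in all 14 settings of the probe set test. The unadjusted count of 651 was 1650 with array weights, 1201 with the GAPDH covariate and 376 with the filter on dim probe sets, which tests 12003. It ran from 430 to 1151 with an array left out. The cause of these moves was not tested. A fit with the replicate block gave 607 probe sets and 0 adjusted calls. The labels state no pairing by replicate number. The deviations of same-numbered placebo and PBS arrays correlated at -0.037, -0.106 and 0.368, which cannot settle whether there was one.

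A list median counted as moved when it shifted by more than 1 SD of the list level within groups, so noisy lists could shift further without counting. By that measure array weights moved ciliated epithelium (-0.19), T and NK cells (0.04), interferon response (0.05), MHC class II (-0.17), complement (0.05), chemokines (0.26), acute inflammation (0.00), fatty acid synthesis (0.09), sterol efflux (0.00), heat shock (0.10), steroid genes (-0.04), epithelial secretion (0.17) and the angiogenic list (-0.09). Within their wider SDs, they took endothelium to -0.23, macrophages and dendritic cells to -0.07, epithelium to 0.09, extracellular matrix to -0.08, foreign body genes to -0.03 and B and plasma cells to 0.09. With the dim filter, which leaves fewer genes, those past 1 SD were lymphatic endothelium (-0.29), neutrophils (-0.37), B and plasma cells (-0.27), T and NK cells (-0.18), eosinophils and mast cells (0.55), acute inflammation (-0.20), lipid uptake (-0.15), sterol efflux (0.00), matrix proteases (-0.22), steroid genes (-0.04) and the angiogenic list (-0.33). Quantile normalisation moved the steroid genes to -0.03. The mean over members in place of the median in each array took the placebo minus PBS difference of list levels from 0.10 to -0.02 for erythrocytes and platelets, -0.15 to -0.38 for MHC class II, 0.09 to 0.14 for unfolded protein stress and 0.00 to -0.02 for steroid genes, each by more than 1 SD. Median and mean differences had opposite signs for lipid uptake (-0.05 and 0.03), eosinophils and mast cells (-0.05 and 0.04) and erythrocytes and platelets (0.07 and -0.02).

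With 1 array left out, medians ran from -0.21 to 0.03 for T and NK cells, -0.27 to -0.10 for the angiogenic list, -0.03 to 0.20 for chemokines, 0.12 to 0.28 for cholesterol synthesis, -0.30 to -0.07 for complement, and -0.18 to 0.22 for eosinophils and mast cells. They ran from 0.02 to 0.18 for epithelial secretion, -0.05 to 0.12 for erythrocytes and platelets, 0.02 to 0.13 for fatty acid oxidation, 0.07 to 0.19 for fatty acid synthesis, -0.15 to 0.05 for foreign body genes, and -0.02 to 0.13 for hypoxia. The range was -0.05 to 0.04 for lipid uptake, -0.03 to 0.02 for steroid genes, -0.19 to 0.02 for sterol efflux and 0.04 to 0.11 for unfolded protein stress.

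Differences near 0 changed sign in 7 named genes. With array weights OXTR was -0.19, ESR1 -0.17 and IL1B 0.26, and quantile normalisation gave -0.02 for ESR1. With an array left out, ISG15 ran from -0.07 to 0.40, MX2 from -0.05 to 0.35, OXTR from -0.14 to 0.48, ESR1 from -0.12 to 0.14, PTGS2 from -0.35 to 0.29, PDK4 from -0.17 to 0.25 and IL1B from -0.37 to 0.15.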

Other observations

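ATP6V1A, a subunit of the proton pump of lysosomes, was picked after its values were seen. One of its probe sets differed by 0.89 ± 0.116 between placebo and PBS, with an unadjusted p of 3.56e-05 and an adjusted p of 0.428 in limma, and another by 0.71 ± 0.128. The probe set that stands for the gene, the one with the highest mean, differed by 0.18, and the remaining one by -0.03. ZNF79 (-0.72) and CSDC2 (-0.51), also picked after their values were seen, had no overlap between the groups.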
